A study of Rattus norvegicus with 9 samples.

Results

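The genes of mitochondrial fatty acid oxidation were followed in rat lung: the regulator Ppara, the carnitine palmitoyltransferases Cpt1a, Cpt1b and Cpt2, the acyl-CoA dehydrogenases Acadm, Acadl and Acadvl, and Hadha of the trifunctional protein. These 8 genes were chosen by name as steps of one pathway, and all 8 of them were found among the 14497 genes that a probe with a single gene symbol represented. The 3 rats with metabolic syndrome (MetS) were male Wistar rats that drank a 30% sucrose solution in place of water for 24 weeks from weaning, which is a diet model and no genetic one. The 4 control rats were Wistar rats that drank water for the same 24 weeks; their sex is not given in the labels. Both groups ate the same chow at will, both were killed after 7 hours in fasting conditions, and the labels name no other treatment. RNA of whole lung tissue was hybridised to Affymetrix rat gene arrays, where a probe means the probe set of one transcript cluster, and values are log2 expression. MetS animal 1 and control animal 1 had 2 arrays each, which were averaged, so that 9 arrays stood for 7 animals and n counts animals.

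The array medians lay between 7.64 and 7.69, and lung markers were high in all 7 animals, with summed levels of the alveolar type 2 markers between 15.9 and 16.0 and of the alveolar type 1 markers between 15.3 and 15.4. The summed level of 9 heart muscle markers was 12.33, 10.61 and 10.53 in MetS 1, 2 and 3, against 13.65, 10.28, 10.41 and 10.24 in controls 1 to 4. MetS 1 and control 1 thus stood apart from the other 5 animals, and for the 8 genes the values without them are given beside those with all animals.

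In background, fatty acids that enter a cell are bound to coenzyme A, passed to carnitine by carnitine palmitoyltransferase 1 on the outer mitochondrial membrane, carried across the inner membrane by a translocase, and handed back to coenzyme A by carnitine palmitoyltransferase 2. Inside, acyl-CoA dehydrogenases of different chain length preference take the first oxidative step, and the trifunctional protein completes the cycle for long chains. PPAR alpha, the product of Ppara, is a nuclear receptor that binds fatty acids and switches on many of these genes, best known in liver, heart and brown fat. In lung, alveolar type 2 cells make and recycle surfactant lipid, and fatty acid oxidation is one of their sources of energy.

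RefSeq promoter windows of assembly GRCr8 were matched for 6 of the 8 genes, Ppara, Cpt1a, Cpt2, Acadm, Acadvl and Hadha. The 250 bases before each annotated start were searched on both strands for the single site AGGTCA that PPAR alpha and related receptors bind, for the repeat AGGTCANAGGTCA, and for the GC box GGGCGG that Sp factors bind. The repeat holds the single site at both of its ends, and these overlapping matches count for both. Shown are the gene with AGGTCA, the one with the most GC boxes, and Cpt1a, the gene whose profile over the animals differed from the rest; motifs are in capitals. The windows are at chr10:55236706-55236955 on the minus strand for Acadvl, chr5:127910819-127911068 on the minus strand for Cpt2 and chr1:209995910-209996159 on the plus strand for Cpt1a, and each sequence runs 5′ to 3′ along its gene.
Acadvl: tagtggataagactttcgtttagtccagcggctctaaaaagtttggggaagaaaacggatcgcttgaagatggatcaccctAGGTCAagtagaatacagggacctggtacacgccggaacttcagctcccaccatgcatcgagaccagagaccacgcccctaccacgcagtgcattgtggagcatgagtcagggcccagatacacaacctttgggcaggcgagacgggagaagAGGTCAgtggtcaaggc
Cpt2: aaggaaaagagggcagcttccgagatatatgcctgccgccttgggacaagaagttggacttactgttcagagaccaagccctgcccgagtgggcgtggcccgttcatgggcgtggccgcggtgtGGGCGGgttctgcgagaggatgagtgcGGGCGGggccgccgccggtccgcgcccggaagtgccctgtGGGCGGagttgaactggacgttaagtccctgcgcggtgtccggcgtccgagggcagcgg
Cpt1a: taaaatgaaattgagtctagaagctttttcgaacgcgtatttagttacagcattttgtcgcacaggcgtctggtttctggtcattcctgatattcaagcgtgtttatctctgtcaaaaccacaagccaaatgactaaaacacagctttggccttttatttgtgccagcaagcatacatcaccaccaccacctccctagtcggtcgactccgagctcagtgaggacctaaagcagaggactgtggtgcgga
AGGTCA was found in 1 of the 6 windows, that of Acadvl, at 169 and 17 bases before the start, and in 14.1% of 33469 rat promoter windows of that length. The repeat, counted only as an exact match, was in 0 of the 6 and in 0.0508% of all windows. In Acadvl the site at 17 bases is followed by GTGGTCA, which is 1 letter off the repeat. Such near matches were not counted in any window. GC boxes were in 3 of the 6, those of Cpt2, Ppara and Hadha, and in 30.5% of all windows. The windows of Cpt1a and Acadm held none of these letters, which says nothing on binding of any factor there.

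The comparison asked whether the lungs of rats with MetS differed from control lungs in these genes. No difference was found: with limma and Benjamini-Hochberg adjustment over all 28826 probes, 0 of the 8 genes passed an adjusted p of 0.05, as did 0.0% of all probes. At an unadjusted p under 0.05 there were also 0 of 8, against 13.7% of all probes. The groups of animals overlapped for each of the 8, whereas 11.7% of all probes separated the groups. In MetS 5 of the 8 read higher and 3 lower, and 53.3% of all probes and 62.0% of all genes read higher. After quantile normalizing again 4 of the 8 did, beside 64.0% of all genes. With the spread of each array's values as a covariate 3 of the 8 did, beside 48.8% of all genes. The median log2 difference of the 8 was 0.045, beside 0.038 over all genes. What did vary was the animal: 7 of the 8 genes had their highest value in control 1, as had 7.29% of all probes. In bulk lung RNA, a change in the share of a cell type and a change of RNA per cell cannot be told apart.

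**Figure D1:**
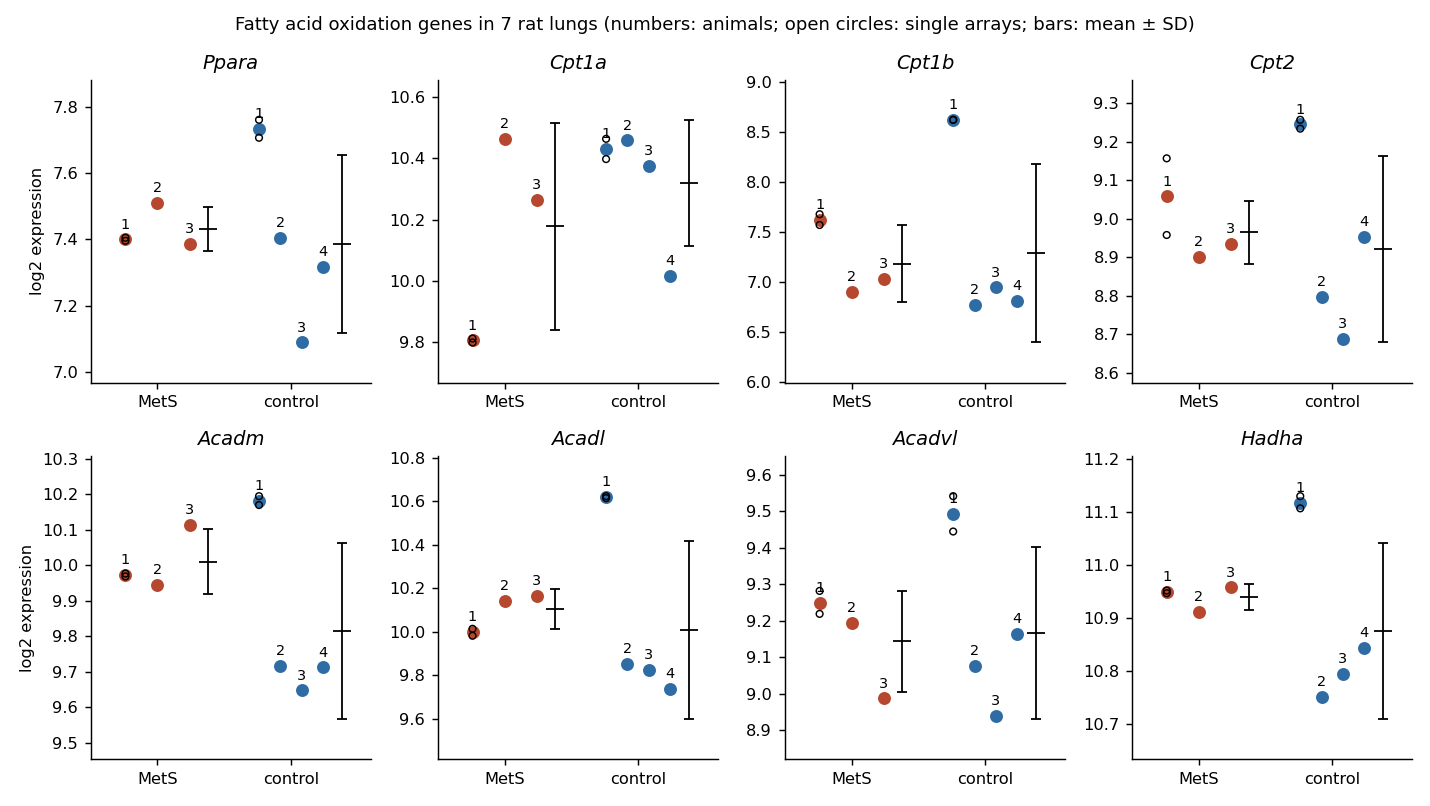
Log2 expression (y axis, own range for each gene) of the 8 fatty acid oxidation genes in MetS (left, red) and control (right, blue) lungs; numbers are animals, open circles single arrays of the animals with 2 arrays, and bars the mean ± SD (n = 3 MetS, n = 4 control). Control 1 is the highest animal in all panels but that of Cpt1a, and the groups overlap in each panel.

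Ppara itself stood at 7.40, 7.51 and 7.39 in MetS 1, 2 and 3, against 7.73, 7.41, 7.09 and 7.32 in controls 1 to 4. The MetS values lay inside the control range and closer together, with 7.43 ± 0.07 (SD, n = 3) in MetS and 7.39 ± 0.27 (SD, n = 4) in controls. The log2 difference, MetS minus control, was 0.05 with a 95% interval from -0.29 to 0.38 (limma adjusted p = 0.891).

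The carnitine step showed different patterns for its 3 enzymes. Cpt1a, the form of the rate-limiting enzyme that liver and most other tissues use, stood at 9.81, 10.47 and 10.27 in MetS, against 10.43, 10.46, 10.38 and 10.02 in controls. Its lowest value was in MetS 1 and its highest in MetS 2, so that both ends of its range lay within one group. Its mean was 10.18 ± 0.34 (SD, n = 3) in MetS and 10.32 ± 0.21 (SD, n = 4) in controls, a difference of -0.14 with an interval from -0.55 to 0.27 (limma adjusted p = 0.713). The 2 arrays of MetS 1 gave 9.80 and 9.81, so the low value was the same on both.

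Cpt1b, the form of heart, skeletal muscle and brown fat, stood at 7.62, 6.90 and 7.03 in MetS, against 8.62, 6.77, 6.95 and 6.81 in controls. Control 1 and MetS 1 were above the other 5 animals, which spanned 6.77 to 7.03. Control 1 exceeded the mean of controls 2 to 4 by 1.78, and MetS 1 exceeded the mean of MetS 2 and 3 by 0.66. The group means, 7.18 ± 0.39 (SD, n = 3) in MetS and 7.29 ± 0.89 (SD, n = 4) in controls, gave a difference of -0.10 with an interval from -1.20 to 0.99, the widest of the 8 genes (limma adjusted p = 0.928).

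Cpt2, the enzyme of the inner membrane, stood at 9.06, 8.90 and 8.94 in MetS, against 9.24, 8.80, 8.69 and 8.95 in controls. Control 1 was highest and MetS 1 second, and the means were 8.96 ± 0.08 (SD, n = 3) in MetS and 8.92 ± 0.24 (SD, n = 4) in controls. The difference of 0.04 had an interval from -0.27 to 0.36 (limma adjusted p = 0.888).

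Of the dehydrogenases, Acadm, which acts on medium chains, had the difference furthest from 0 among the 8 genes. It stood at 9.97, 9.95 and 10.11 in MetS, against 10.18, 9.72, 9.65 and 9.71 in controls. All MetS values lay above controls 2 to 4 and below control 1. The means were 10.01 ± 0.09 (SD, n = 3) in MetS and 9.81 ± 0.25 (SD, n = 4) in controls, a difference of 0.20 with an interval from -0.12 to 0.51 (limma adjusted p = 0.518), or 1.15-fold with an interval from 0.918 to 1.43.

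Acadl, the long-chain enzyme, repeated this arrangement with 9.997, 10.14 and 10.17 in MetS, against 10.62, 9.85, 9.82 and 9.74 in controls. Control 1 exceeded the mean of the other controls by 0.81, while those 3 lay within an SD of 0.06. The difference was 0.09 with an interval from -0.40 to 0.59 (limma adjusted p = 0.845). Acadvl, the very-long-chain enzyme of the inner membrane, stood at 9.25, 9.20 and 8.99 in MetS, against 9.49, 9.08, 8.94 and 9.16 in controls. Here MetS 1 and 2 lay above controls 2 to 4 and MetS 3 among them, and the difference was -0.02 with an interval from -0.35 to 0.30 (limma adjusted p = 0.944).

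Hadha, the alpha subunit of the trifunctional protein, had 2 probes, and the brighter stood for the gene. It gave 10.95, 10.91 and 10.96 in MetS, against 11.12, 10.75, 10.79 and 10.84 in controls. The 3 MetS values lay within an SD of 0.02, between control 1 and the other controls, and the difference was 0.06 with an interval from -0.16 to 0.29 (limma adjusted p = 0.763). The second probe gave 9.25, 9.24 and 9.23 in MetS, against 9.44, 9.14, 9.08 and 9.22 in controls, with the same highest animal and a difference of 0.02.

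The repeated arrays set the technical error beside these values. Between the 2 arrays of one animal, the 8 genes differed by a median of 0.023 in MetS 1 and 0.024 in control 1, and by at most 0.199, for Cpt2 in MetS 1. The excess of control 1 over the mean of controls 2 to 4 was between 0.15, for Cpt1a, and 1.78, for Cpt1b, with Ppara at 0.46, Cpt2 and Acadvl at 0.43, Acadm at 0.49 and Hadha at 0.32. For the 7 genes other than Cpt1a, both arrays of control 1 lay above the value of every other animal. The labels do not say at which step the 2 arrays of an animal were split, so how much of the handling they share is not known.

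The values of other tissues' markers moved with this animal. Of 9 heart muscle markers, 7 were highest in control 1, and the same 7 were higher in MetS 1 and control 1 than in any other animal. Actc1, cardiac actin, stood at 10.72, 8.34 and 8.39 in MetS, against 12.06, 7.60, 7.75 and 7.80 in controls. Myh6, the alpha myosin heavy chain of heart, stood at 9.61, 7.53 and 7.21 in MetS, against 11.13, 7.22, 7.34 and 6.92 in controls. The remaining 2, the atrial light chain Myl7 and the natriuretic peptide Nppa, did not have this order: Myl7 was highest in MetS 2 and Nppa in control 2. In rodents the walls of pulmonary veins carry heart muscle, which is part of ordinary lung tissue. The source of the heart marker values in control 1 and MetS 1 was not tested.

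Markers of other sources were read the same way. The skeletal muscle list had summed levels of 10.51, 10.13 and 10.10 in MetS, against 11.25, 10.06, 10.19 and 10.06 in controls. Ckm, the creatine kinase of heart and skeletal muscle, was at 10.55 in control 1. The actin Acta1, at 8.88, and the troponin Tnnt3, at 6.49, were also highest there, the other 4 of the 7 measured were not, and the skeletal myosins Myh1, Myh2 and Myh4 were between 5.34 and 7.16 in all animals. The brown fat list had summed levels of 10.15, 9.68 and 9.52 in MetS, against 10.62, 9.26, 9.43 and 9.66 in controls, with Cox8b, a cytochrome oxidase subunit of heart, muscle and brown fat, at 9.01, 7.92 and 7.22 in MetS, against 9.99, 6.97, 7.50 and 8.05 in controls. Ucp1, which defines that tissue, was between 6.06 and 6.27 in all animals, below the 25th percentile of probe means, 6.48. White fat markers lay between 10.73 and 10.95 in MetS and between 10.69 and 10.86 in controls. The summed level of the macrophage markers was highest in MetS 1, at 13.00, 12.20 and 12.45 in MetS, against 12.68, 12.53, 12.43 and 12.62 in controls. Of the 6 measured, 4 were highest in MetS 1, while Marco was highest in control 3 and Siglec5 in control 2. Red cell markers were between 13.50 and 13.72 in MetS and between 13.05 and 13.55 in controls. The part of these cell types in the values of the 8 genes was not tested, beyond the fits that follow.

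**Figure D2:**
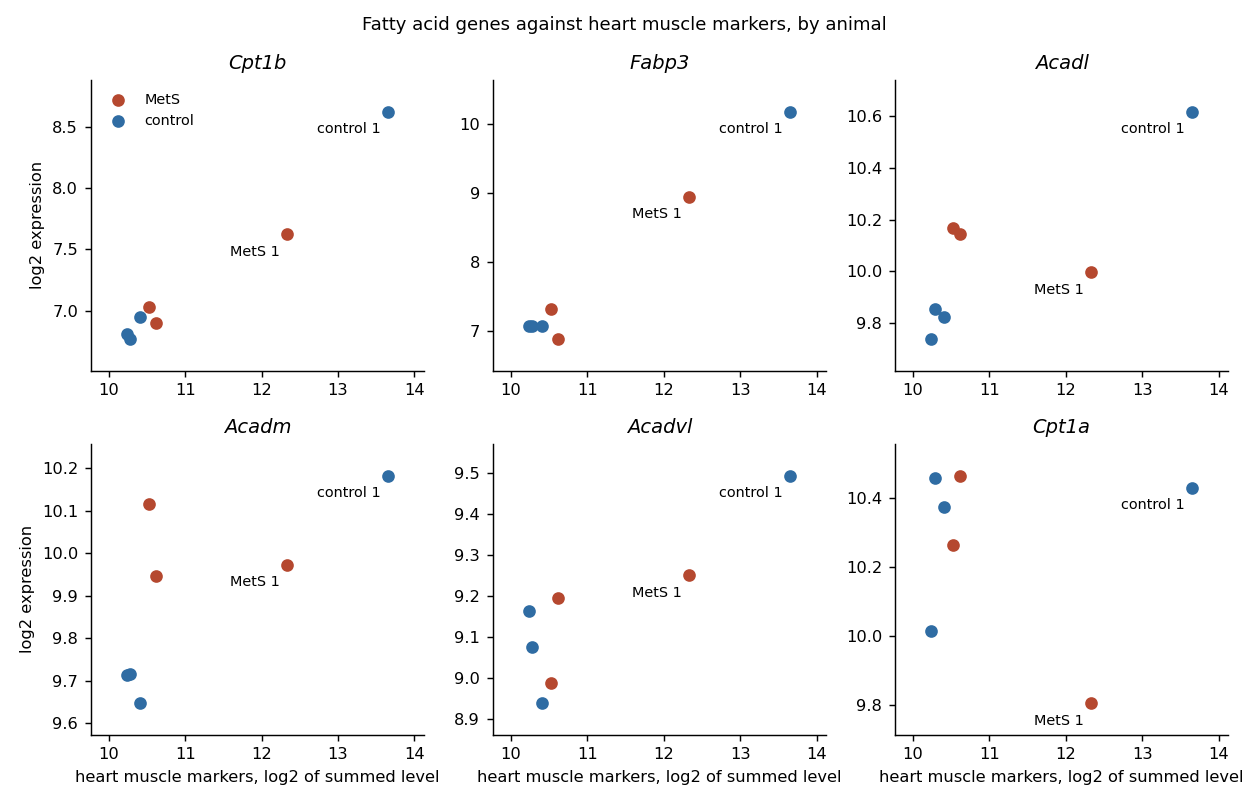
Log2 expression (y axis) of Cpt1b, Fabp3, Acadl, Acadm, Acadvl and Cpt1a against the log2 summed level of 9 heart muscle markers (x axis), 1 point an animal, MetS in red and control in blue. MetS 1 (12.33) and control 1 (13.65) are to the right of the other 5 animals; Cpt1b and Fabp3 are high in both, Acadl and Acadm stand out in control 1, and Cpt1a is low in MetS 1.

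With the heart marker level as a covariate, chosen after the values were seen, the Cpt1b difference was -0.11 and its interval narrowed to -0.34 to 0.12 (limma adjusted p = 0.597). With the same covariate 5 of the 8 genes again read higher, with a median difference of 0.044. Leaving out control 1 moved more: 7 of the 8 genes then read higher in MetS, all but Cpt1a, against 52.6% of all probes and 62.3% of all genes. Control 1 lay above the mean of the other controls for each of the 8 genes. Leaving it out could therefore only move their differences upward, and that direction is no separate result. Acadm had a difference of 0.32 with an interval from 0.14 to 0.50 (limma unadjusted p = 0.00439, adjusted p = 0.333), and Acadl one of 0.30 with an interval from 0.11 to 0.48 (limma unadjusted p = 0.00758, adjusted p = 0.333). The other differences without control 1 were 0.16 for Ppara, -0.10 for Cpt1a, 0.34 for Cpt1b, 0.15 for Cpt2, 0.09 for Acadvl and 0.14 for Hadha. Acadm and Acadl, 2 of 8 genes, were under an unadjusted 0.05, beside 14.7% of all probes, and 0 of 8 passed after adjustment. The 3 genes Acadm, Acadl and Hadha then had no overlap between the groups, beside 17.5% of all probes.

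Leaving out MetS 1 as well, also chosen after the values were seen, kept 2 MetS and 3 control animals. All 8 genes then read higher in MetS, against 50.9% of all probes and 59.4% of all genes. Leaving out control 1 could again only raise their differences, and MetS 1 was the lowest animal for Cpt1a. The counts of this fit thus depend on the animals left out and are no separate result. Acadm was at 0.34 (limma unadjusted p = 0.0115, adjusted p = 0.578) and Acadl at 0.35 (limma unadjusted p = 0.00614, adjusted p = 0.578). They were the 2 of 8 genes under an unadjusted 0.05, beside 6.71% of all probes. No overlap was seen for 3 of 8 genes, beside 25.2% of all probes. Cpt1a, at -0.14 with all animals, was at 0.08, Cpt1b at 0.12, Ppara at 0.18, Cpt2 at 0.11, Acadvl at 0.03 and Hadha at 0.14. In the opposite direction, leaving out controls 2 and 3, whose arrays have the narrowest spread of values, left 1 of 8 genes higher, Acadm, beside 54.8% of all genes. Control 1, the highest animal for 7 of the 8, weighed more among the controls left, so that direction is no separate result either. The sign of most of these small differences thus followed which animals were in the fit, and the lowest adjusted p of any of the 8 genes over all fits made was 0.333.

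**Figure D3:**
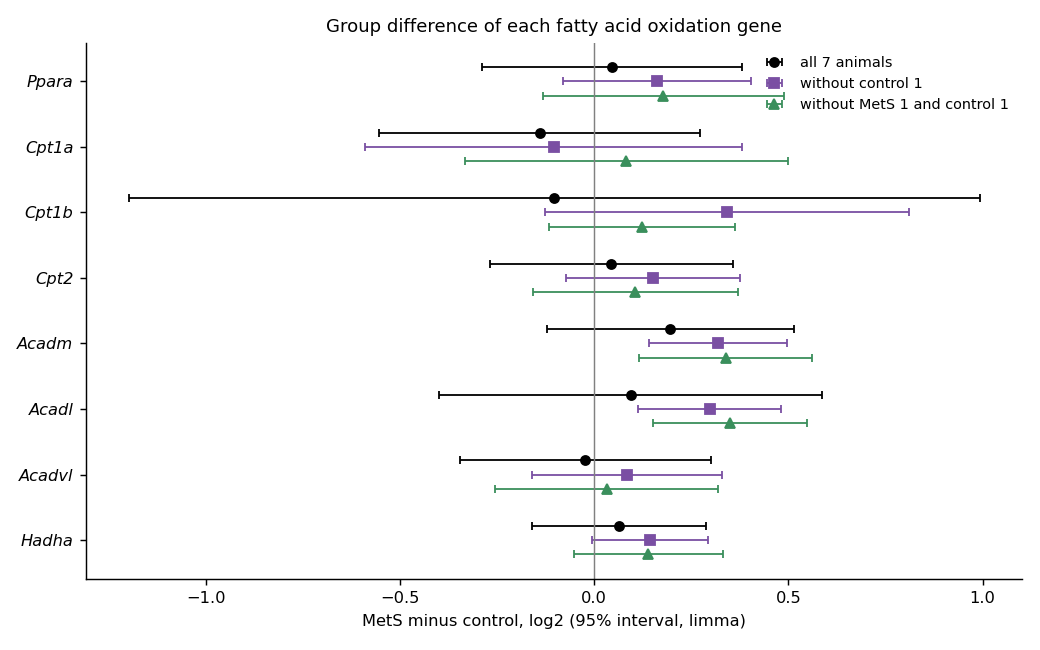
Log2 difference, MetS minus control (x axis), of each of the 8 genes with its 95% interval from limma, with all 7 animals (black circles), without control 1 (purple squares) and without MetS 1 and control 1 (green triangles). With all animals each interval spans 0. Without control 1, and also without MetS 1 and control 1, those of Acadm and Acadl lie above 0, before any adjustment over probes.

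Pairs of genes were also compared inside each animal. These differences between probes have no meaning as levels, and only their change from animal to animal is read. Cpt1b minus Cpt1a, the muscle over the liver form, was -2.18, -3.56 and -3.24 in MetS, against -1.81, -3.69, -3.43 and -3.20 in controls. MetS 1 and control 1 were highest, and the groups differed by 0.04 (two-sided exact permutation p = 0.971, adjusted p = 0.971 over 3 pairs). Acadl minus Acadvl, the long-chain over the very-long-chain enzyme, was 0.75, 0.95 and 1.18 in MetS, against 1.12, 0.78, 0.89 and 0.58 in controls, a difference of 0.12 (exact permutation p = 0.514, adjusted p = 0.971). Cpt1b minus Acacb, whose enzyme makes the malonyl-CoA that inhibits carnitine palmitoyltransferase 1, differed by -0.21 (exact permutation p = 0.800, adjusted p = 0.971). With 3 against 4 animals there are 35 splits, and 0.0571 is the smallest p they can give.

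Around the 8 genes, 81 of 91 listed genes of fatty acid handling were measured, and 0 of them passed the adjusted p. Among them 55 read higher and 26 lower in MetS, 67.9% higher, beside 62.0% of all 14497 genes, with a median difference of 0.063 beside 0.038. At an unadjusted p under 0.05 there were 2 higher and 2 lower, 4 of 81 beside 13.0% of all genes, and 3 of 81 had no overlap, beside 11.6% of all genes. The highest animal was control 1 for 31 of the 81, or 38.3%, beside 8.55% of all genes.

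The other genes of mitochondrial beta-oxidation followed control 1 most. Of 16 measured, 12 were highest there, 11 read higher and 5 lower in MetS, and the median difference was 0.076. With the spread of each array as a covariate 6 of 16 read higher, beside 48.8% of all genes. The median was then -0.063, beside -0.003 over all genes. Hadhb, the beta subunit of the trifunctional protein, stood at 10.45, 10.16 and 10.32 in MetS, against 10.47, 10.02, 10.16 and 10.21 in controls. Control 1 was highest and MetS 1 second, as for Cpt2, and the difference was 0.09 (limma adjusted p = 0.718), or 0.18 without control 1. Etfdh, which passes the electrons of the dehydrogenases to ubiquinone, stood at 9.15, 9.10 and 9.05 in MetS, against 9.27, 8.85, 8.87 and 8.995 in controls. Its MetS values lay between control 1 and the other controls as for Acadm, with a difference of 0.10 (limma adjusted p = 0.663), or 0.20 without control 1. Acads, the short-chain dehydrogenase, stood at 8.11, 8.08 and 7.93 in MetS, against 8.36, 7.98, 7.98 and 7.91 in controls, a difference of -0.01 (limma adjusted p = 0.962).

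Activation of fatty acids and the rest of the carnitine shuttle had 9 of 10 genes measured, 8 of them reading higher and 1 lower, with a median difference of 0.074 and 3 highest in control 1. Acsl1, which joins long-chain fatty acids to coenzyme A, stood at 8.77, 8.64 and 8.64 in MetS, against 9.18, 8.47, 7.88 and 8.12 in controls. The controls spanned far more than the MetS animals, and the difference of 0.27 had an interval from -0.39 to 0.94 (limma adjusted p = 0.656). Single animals moved it, to 0.53 without control 1 and to 0.10 without control 3. Slc25a20, the translocase that carries acylcarnitine inward, stood at 9.21, 9.24 and 9.01 in MetS, against 9.31, 9.10, 9.14 and 9.07 in controls, a difference of 0.00 with an interval from -0.21 to 0.21. Slc22a5 was not measured by a probe with a single symbol.

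Of the uptake genes 6 of 13 read higher and 7 lower, when 62.0% of all genes read higher. Their median difference was -0.017 beside 0.038 over all genes. After quantile normalizing again 9 of 13 read higher, when 64.0% of all genes did. The fatty acid transporter Cd36 stood at 11.71, 11.15 and 11.77 in MetS, against 11.88, 11.79, 11.53 and 11.45 in controls, lowest in MetS 2, with a difference of -0.12 (limma adjusted p = 0.749). Fabp3, the fatty acid binding protein of heart muscle, was named after its values were seen. It stood at 8.94, 6.88 and 7.31 in MetS, against 10.18, 7.06, 7.07 and 7.06 in controls, so that control 1 and MetS 1 were highest as for Cpt1b. Its difference was -0.13 with an interval from -2.19 to 1.93 (limma adjusted p = 0.952), and without MetS 1 and control 1 it was 0.03.

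Peroxisomal oxidation, which shortens very long and branched chains, had 12 of 16 genes measured, 8 reading higher and 4 lower. The median was 0.036, and 5 were highest in control 1. With the spread of each array as a covariate 4 of 12 read higher, beside 48.8% of all genes. Phyh, which starts the breakdown of phytanic acid and was also named after its values were seen, stood at 9.96, 9.50 and 9.64 in MetS, against 10.39, 9.39, 9.34 and 9.18 in controls.

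Other targets of PPAR alpha, a list without the 8 genes, did not move together. Of 17 measured of 20 listed, 6 read higher and 11 lower in MetS, when 62.0% of all genes read higher. Their median was -0.019 beside 0.038 over all genes. After quantile normalizing again 8 of 17 read higher, when 64.0% of all genes did. Without control 1 the count was 9 of 17, when 62.3% of all genes read higher. Pdk4, the kinase that holds back glucose oxidation, stood at 8.84, 9.69 and 9.73 in MetS, against 9.95, 9.53, 8.63 and 8.14 in controls. It ranged widely within both groups, and its difference of 0.36 had an interval from -0.71 to 1.43 (limma adjusted p = 0.718). It was 0.05 without control 4, 0.65 without MetS 1 or without control 1, and 0.95 without both. Angptl4, a secreted inhibitor of lipoprotein lipase, stood at 7.35, 7.75 and 7.37 in MetS, against 7.78, 7.78, 7.53 and 7.38 in controls, a difference of -0.13 (limma adjusted p = 0.678).

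At an unadjusted p under 0.05 this list held 2 of 17 genes, both lower, beside 13.0% of all genes in either direction and 9.17% lower. They were named after their values were seen. Fgf21, a fasting hormone best known from liver, stood at 6.83, 6.72 and 6.90 in MetS, against 6.96, 7.22, 7.31 and 6.90 in controls, a difference of -0.28 (limma unadjusted p = 0.0438, adjusted p = 0.357). It was -0.11 without controls 2 and 3 and -0.01 with the spread of each array as a covariate (limma unadjusted p = 0.194 and 0.901). Cyp4a8, an omega-hydroxylase, had a difference of -0.45 (limma unadjusted p = 0.0458, adjusted p = 0.359) and a mean below 6.48, the 25th percentile of probe means. It was -0.15 without controls 2 and 3 and 0.05 with that covariate (limma unadjusted p = 0.155 and 0.595). Acot1, a cytosolic thioesterase named after its values were seen, stood at 5.31, 6.98 and 7.22 in MetS, against 7.16, 7.17, 7.14 and 5.97 in controls. It was lowest in MetS 1 and control 4, the 2 animals in which Cpt1a was lowest too. Acot1 was also taken as one of the 3 profiles closest to Cpt1a, so this match is part of its choice.

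Regulators of the pathway read higher in MetS in 17 of 17 measured genes, of 20 listed, when 62.0% of all genes did. Their median difference was 0.102 beside 0.038 over all genes. After median centring 17 of 17 read higher, when 65.3% of all genes did. After quantile normalizing again 16 of 17 did, when 64.0% of all genes did. The count was 12 of 17 without controls 2 and 3, when 54.8% of all genes read higher, and 10 of 17 with the spread of each array as a covariate, when 48.8% did. The spread of values over probes was 1.93, 1.90 and 1.88 in MetS, against 1.85, 1.77, 1.76 and 1.88 in controls. Its part in these differences was not tested further.

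Ppargc1a, the coactivator that drives mitochondrial and oxidative genes with PPAR alpha, stood at 8.84, 8.69 and 8.70 in MetS, against 8.60, 8.28, 8.24 and 8.53 in controls. All 3 MetS values were above all 4 control values, as for 4.88% of all probes. The difference was 0.33 with an interval from 0.08 to 0.58, or 1.25-fold (limma unadjusted p = 0.0178, adjusted p = 0.324). It was 0.17 without controls 2 and 3 (limma unadjusted p = 0.0663) and 0.08 with the spread of each array as a covariate (limma unadjusted p = 0.400). Ppard, the receptor delta, stood at 8.86, 8.93 and 8.88 in MetS, against 8.86, 8.71, 8.80 and 8.80 in controls. Its lowest MetS value exceeded its highest control, control 1, by only 0.003, with a difference of 0.10 (limma adjusted p = 0.477). The corepressor Ncor1 had a margin of 0.001 over control 4 and a difference of 0.11 (limma adjusted p = 0.466); both margins are smaller than the median gap of 0.061 between the 2 arrays of MetS 1 over all probes.

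Lpin1, a phosphatidate phosphatase that also acts as a coactivator of PPAR alpha, was named after its values were seen and differed by 0.22 with overlap (limma unadjusted p = 0.0463, adjusted p = 0.359). It was 0.13 without controls 2 and 3 and 0.07 with the spread of each array as a covariate (limma unadjusted p = 0.238 and 0.530). Pparg, the receptor gamma, which alveolar macrophages and fat cells use, stood at 10.46, 9.70 and 9.84 in MetS, against 10.01, 9.76, 9.59 and 10.22 in controls, a difference of 0.10 (limma adjusted p = 0.832). Its highest animal, MetS 1, was also that of the summed macrophage markers, a list that holds Pparg. The carboxylases Acaca and Acacb, which make malonyl-CoA, differed by 0.14 and 0.10, the second by 0.19 without control 1, and Mlycd, which removes it, by 0.07 (limma adjusted p = 0.512, 0.664 and 0.736).

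**Figure D4:**
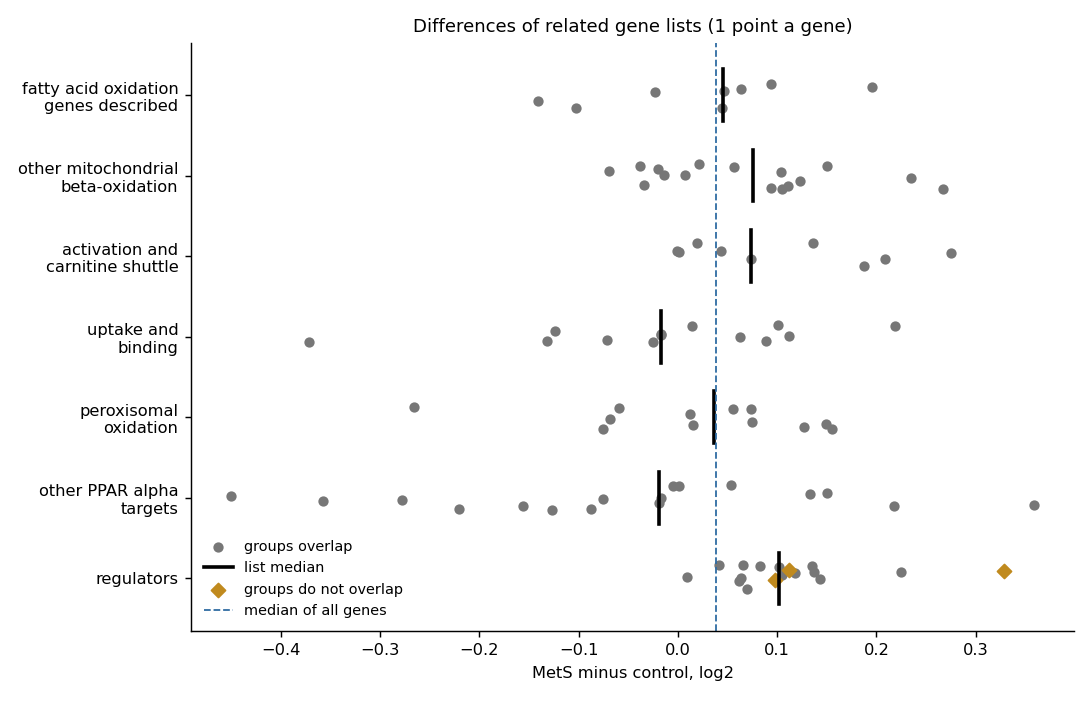
Log2 difference, MetS minus control (x axis), of each measured gene of the 8 described and the 6 related lists (rows), with the median of each list as a black bar and that of all genes (0.038) as a dashed line. Diamonds are the 3 genes whose groups did not overlap, all among the regulators; the medians lie between -0.019 and 0.102.

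Profiles over the 7 animals were described by Pearson's r with each of 12006 genes whose probe mean was above the 25th percentile. All points come from one normalized table, the animals with high heart muscle markers weigh heavily in some profiles, and r is given without a test. Cpt1b was most like Ckm, at 0.997, the sarcomere protein Actn2, at 0.996, and titin, Ttn, at 0.993. In the 5 animals without MetS 1 and control 1 these were 0.863, 0.914 and 0.600. Cpt1a was most like Gas6 at 0.962, Nop53 at 0.956 and Acot1 at 0.943, and the last was 0.837 in the 5 animals.

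Ppara was most like Bod1, Slc25a28 and Npy, at 0.996, 0.983 and 0.983, and Cpt2 was most like Fitm2, Srf and Got1, at 0.988, 0.980 and 0.974. Acadm was most like Enc1, Pcid2 and Nelfa, at 0.990, 0.962 and 0.962, and Acadl was most like Septin9, Ess2 and Rangrf, at 0.970, 0.949 and 0.941. Acadvl was most like H4c14, Gsr and Vdac1, at 0.988, 0.988 and 0.982, and Hadha was most like Slc35e3, Golt1b and Gucy2g, at 0.980, 0.979 and 0.972. No gene appeared for more than one of the 8.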

How the data were processed

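The deposited table holds log2 expression values of 9 arrays of rat lung RNA, made from 50 ng of RNA with an integrity number of at least 6 per the labels' protocols. The tools listed per the submitters' processing notes are R 2.11.0, RMA and limma, without their roles, and the genome build they used is unknown here. RMA usually includes quantile normalization over all arrays, which leaves them with equal spread, but the SD over probes was between 1.76 and 1.93 in the animals, so what normalization these values had is not known. Their medians are nearly equal, so a shift shared by most genes would not be seen.

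Arrays of one animal were averaged. The groups were compared with limma 3.58.1 (lmFit and eBayes, R 4.3.3), with Benjamini-Hochberg adjustment over 28826 probes and a threshold of 0.05. Permutation tests used scipy 1.17.1. Of the probes, 15209 had 1 gene symbol, 306 several and 13311 none; only the first kind was named, 15184 of them through RefSeq assembly GRCr8. Where a gene had several probes, as 494 genes did, the brightest by mean stood for it. A marker level is the log2 of the summed unlogged values. The limma fit was tested on simulated data, over 5 runs with 200 changed probes each among 28826. It recovered 80.8% of log2 shifts of 1 and 95.2% of 2, with 61 false calls. Recovery of smaller shifts was not tested, and the fatty acid oxidation genes differed by at most 0.20, for Acadm. These rates therefore do not say how often differences of that size would be found.

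The 8 genes, the lists and the genes named from them were chosen with earlier results of these data known. Beside the 8, the text names further genes of the pathway taken by name whatever their values, up to 3 genes of each list whose groups did not overlap, the 3 closest profiles of each of the 8, and genes said to be named after their values were seen. The same animal number in both groups marked no shared origin in the labels, and the deviations of same-numbered animals correlated at 0.271, -0.118 and 0.339, so the numbers were not taken as pairs. The alternatives numbered 20, of which 2 were added after seeing the data.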

Additional observations from a re-analysis of the deposited data

Results flagged for a closer look

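Among the 4 control animals, 33 genes, differences between genes and marker levels were examined for a value far from the other 3, by Dixon's gap ratio with a critical value of 0.829. In all 8 were marked, 7 of them for control 1. Of the 33, 7 had been chosen after their values were seen, which hold 4 of the 8, so the total is not set against chance. Of the other 26 there were 4 marked, all for control 1. Chance alone marks about 1 in 20 such groups, but items that share an animal are not independent. These genes were also chosen with earlier results of these data known. How many of all genes would be marked was not counted, so the 4 are not read as an excess. Of the 8 fatty acid oxidation genes, control 1 was marked for Cpt1b at 8.62, for Acadm at 10.18 and for Acadl at 10.62. It was also marked for the short-chain dehydrogenase Acads at 8.36, for the heart fatty acid binding protein Fabp3 at 10.18, for the peroxisomal hydroxylase Phyh at 10.39, and for the summed level of the heart muscle markers at 13.65. Control 4 was marked for the thioesterase Acot1, at 5.97, which was low.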

How the results depend on the processing

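None of the 8 genes and none of the related genes passed the adjusted threshold under any of the 20 alternatives. The median difference of the 8 genes ranged from -0.085 to 0.157, and of 59 changes of sign among single genes, 57 were of genes whose difference was under its standard error. The causes were not tested. The counts that moved were those at an unadjusted p under 0.05, 3959 probes and 4 of 81 related genes with all animals, and the 5 of 8 genes reading higher.

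With the first array of each animal the related count was 1, Slc25a20 was -0.02 and Acads 0.01. With all 9 arrays and the animal as a random block Slc25a20 was 0.00. After quantile normalizing again Cpt2 was -0.02 and Slc25a20 -0.07. Without dim probes 2181 probes were counted, and with single-symbol probes 2096, both from fewer probes tested. With the animal number as a replicate block 2017 probes passed the adjusted threshold, 6747 the unadjusted one and 7 related genes the unadjusted one, with Slc25a20 at -0.03 and Phyh at 0.00; that fit uses only 3 animals a group, and 0 of the 8 genes passed. The animals share only a number, and MetS 1, 2 and 3 correlated best with controls 1, 4 and 2.

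Without controls 2 and 3 there were 1510 probes, 0 related genes and 1 of the 8 reading higher, with Ppara at -0.09, Cpt2 -0.13, Acadl -0.08, Hadha -0.04, Hadhb -0.03, Slc25a20 -0.04, Etfdh -0.03, Pparg -0.12, Phyh -0.08 and Cpt1b minus Cpt1a -0.49. With the spread of each array as a covariate there were 1023 probes, 1 related gene and 3 of the 8 reading higher, with Ppara at -0.11, Cpt1a 0.15, Cpt2 -0.20, Hadha -0.05, Hadhb -0.07, Slc25a20 -0.05, Etfdh -0.08, Pparg -0.38, Acaca -0.03, Mlycd -0.02, Cyp4a8 0.05, Phyh -0.08 and Acot1 0.63. Without MetS 1 and control 1 there were 1934 probes, 6.71% of all, with 8 of 81 related genes and 2 of the 8 under the unadjusted threshold. In that fit 8 of 8 read higher, with Cpt1a at 0.08, Cpt1b 0.12, Acadvl 0.03, Acads 0.05, Pparg -0.09, Fabp3 0.03 and Acot1 0.34.

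Leaving out each animal in turn gave 2168 to 6180 probes, lowest without MetS 2 and highest without control 4; 2290 without MetS 1, 2386 without control 2 and 2321 without control 3 were also more than 1.5 times below 3959. It gave 0 to 2 of the 8 genes under the unadjusted threshold and 3 to 7 of 8 reading higher, lowest without control 3 and highest without control 1. The related count was 1 to 12 of 81, with 12 without control 1, beside 14.7% of all probes. It was 1 without MetS 3 or control 3, beside 3172 and 2321 of 28826 probes. Without MetS 1 it was 2, beside 2290 probes. Differences ranged from -0.05 to 0.16 for Ppara, -0.28 to 0.05 for Cpt1a, -0.32 to 0.34 for Cpt1b, -0.03 to 0.15 for Cpt2, and -0.10 to 0.09 for Acadvl. They ranged from -0.04 to 0.07 for Slc25a20, -0.06 to 0.09 for Acads, -0.24 to 0.07 for Cd36, -0.13 to 0.26 for Pparg, -0.75 to 0.65 for Fabp3, 0.00 to 0.40 for Phyh and -0.72 to 0.24 for Acot1. Cpt1b minus Cpt1a ranged from -0.37 to 0.45 and Cpt1b minus Acacb from -0.43 to 0.15. The number of animals, 3 and 4, limits the precision of each difference.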
